A study of Gallus gallus with 12 samples.

Results

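Hearts of chicken embryos incubated in hypoxia were compared with hearts incubated in normoxia over 3 breeds at once. The comparison takes all 12 arrays of the series, chosen by the condition in their titles: 6 from hypoxia and 6 from normoxia. Each condition holds 2 arrays of the Tibetan chicken, 2 of the Shouguang chicken and 2 of the Dwarf Recessive White chicken, numbered replicate 1 and replicate 2, and the eggs of a breed came from full sibs. The Tibetan chicken is a highland breed and the others are lowland breeds. The labels used here state neither how low oxygen was nor how old or of which sex the embryos were. Nothing in them says that the 2 arrays of a group came from separate hearts, so a p-value measures only the spread between these arrays.

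When oxygen is short, the prolyl hydroxylases that mark the alpha subunits of the hypoxia-inducible factor (HIF) for destruction slow down. HIF then switches on genes of glycolysis, glucose uptake, vessel growth and red cell formation. The embryonic heart is the first organ to work, it grows by division of its muscle cells, and the growth of its wall and vessels is sensitive to oxygen. In the adult heart, low oxygen and mechanical load are also known for raising matrix and early response genes.

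Values are log2 signals of probe sets, the groups of short probes by which the array reads a transcript. The hypoxia effect is the difference of log2 signals, hypoxia minus normoxia, in a limma fit with breed and replicate number as additive terms, ± its standard error (SE, 6 arrays per condition). A probe set passed at a Benjamini-Hochberg adjusted p under 0.05 over all 23063 probe sets tested. The tissue read as heart: all 9 cardiomyocyte markers lay above the dim limit, the signal of 79.5 (log2 6.31) at the 40th percentile. The log2 of their summed signal was 18.26 to 18.46 in hypoxia and 18.31 to 18.48 in normoxia.

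Hypoxia changed 71 probe sets over the 3 breeds, 45 upward and 26 downward. That is 0.308% of the probe sets tested, 0.195% upward and 0.113% downward. At an unadjusted p under 0.05 there were 2770, with 1153 expected by chance. The change was at least 2-fold in 19 of the 71, with 11 higher and 8 lower in hypoxia. The 71 stand for 56 named genes, 34 up and 22 down, and 9 further probe sets without a single gene symbol, whose changes ran from -1.48 to 0.83. The median change was 0.71 among those that rose and -0.51 among those that fell.

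All 71 had the same direction in each of the 3 breeds, against 32.1% of all probe sets tested. The 71 were chosen by small p-values on these same arrays, which favours a shared direction and arrays that stand apart. This count and the next ones therefore describe the 71 and support nothing. In 63 of the 71, both hypoxia arrays lay on one side of both normoxia arrays in every breed, which held for 2.48% of all probe sets. In 23, all 6 hypoxia arrays lay beyond all 6 normoxia arrays, against 0.542% of all. The hypoxia effect was smallest in the Tibetan breed for 38 of the 71 and largest there for 17. Neither count was taken over all probe sets tested. The median size was 0.62 in Tibetan, 0.66 in Shouguang and 0.67 in Dwarf Recessive White hearts.

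The count depends on how the spread is estimated. It was 23 without the replicate number in the model, all of them among the 71. It was 0 when the variances were moderated without a trend on signal (2435 at an unadjusted p under 0.05, smallest adjusted p = 0.119). The adjusted p of the 71 ran up to 0.282 there. Of the 71, 69 stood among the 200 smallest p-values, which is favoured in advance because only the moderation of the variances differed. Leaving out 1 array gave 7 calls without Dwarf Recessive White hypoxia replicate 1 and 17 without Dwarf Recessive White or Shouguang normoxia replicate 1. It gave 24 without Shouguang normoxia replicate 2, 30 without Tibetan hypoxia replicate 1 and 31 without Shouguang hypoxia replicate 2. The counts were 37 and 38 without Tibetan normoxia replicate 2 and 1, and 41 and 43 without replicate 2 of Dwarf Recessive White and of Tibetan hypoxia. They were 69 and 72 without Dwarf Recessive White normoxia replicate 2 and Shouguang hypoxia replicate 1. The direction of the 71 was the same in each of these fits. The fits reuse the arrays on which the 71 were chosen, which favours this in advance, so it supports nothing.

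**Figure D1:**
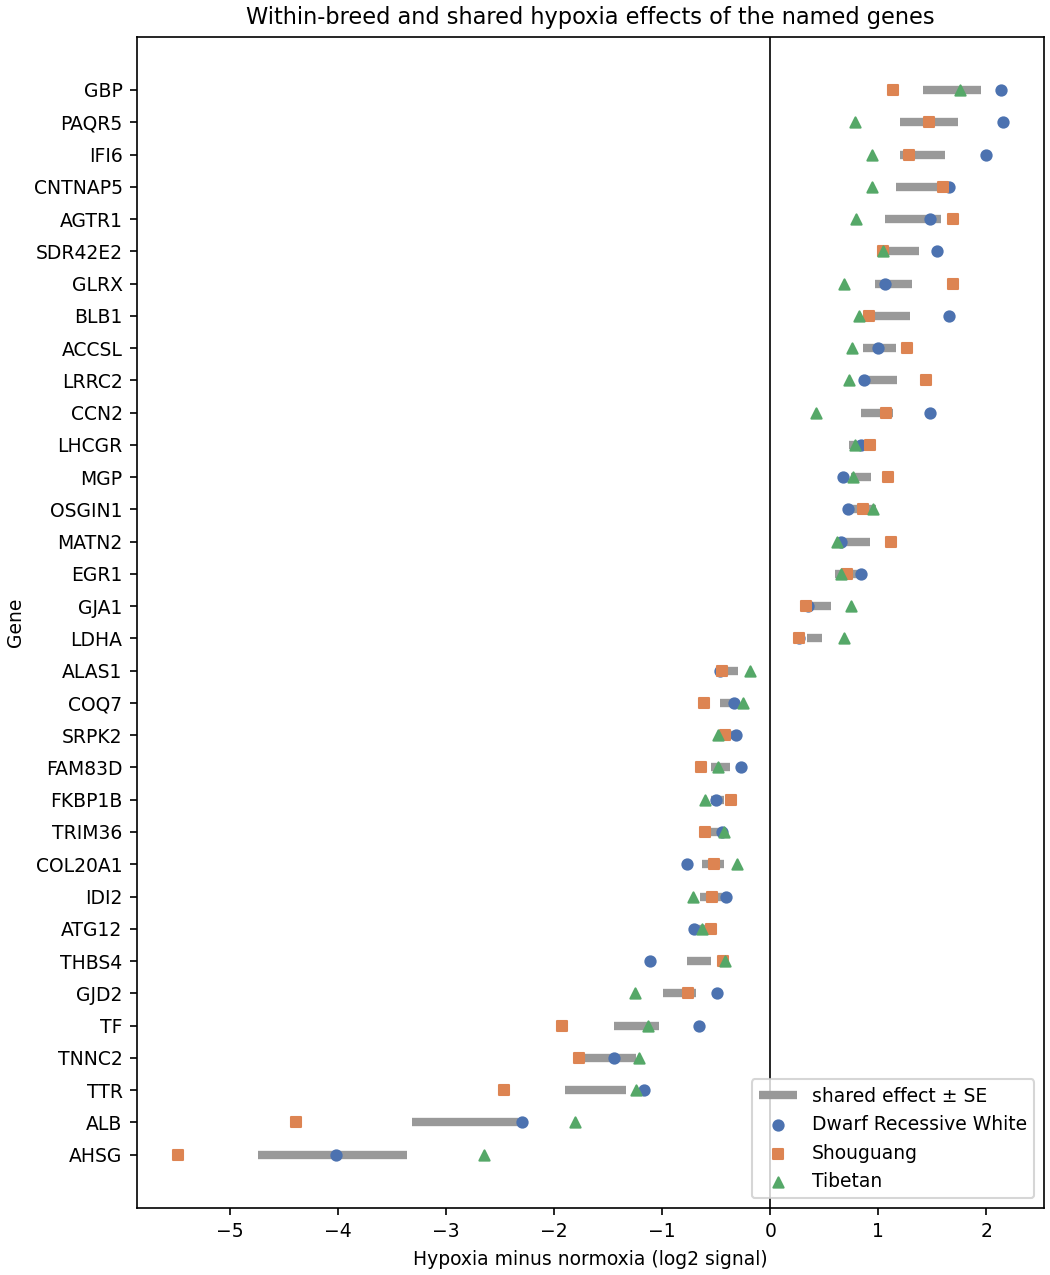
Hypoxia minus normoxia in log2 signal (horizontal axis) for the 34 genes named by rule that passed (vertical axis). Symbols are the 3 breeds and grey bars the shared effect ± SE. Every symbol of a gene lies on the same side of 0, which the rule for naming required. The widest spread between breeds is that of AHSG, from -5.48 to -2.65.

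The direction was then read in a breed that had no part in choosing the probe sets. The 100 probe sets with the smallest p in 2 breeds were looked up in the 4 arrays of the third. In Shouguang hearts 92 of 100 had the direction seen in the others, in Tibetan hearts 88 and in Dwarf Recessive White hearts 80. Over all probe sets tested, the shares were 56.1% for Shouguang, 56.6% for Tibetan and 54.1% for Dwarf Recessive White. The changes were smaller in the breed left out, which a choice by small p-values in the other 2 breeds favours in advance. Taken along the expected direction, their median was 0.33 in Shouguang, 0.31 in Tibetan and 0.27 in Dwarf Recessive White, against median sizes of 0.62, 0.72 and 0.57 in the 2 breeds of the choice. Of the probe sets that passed in 2 breeds alone, the same direction was found for 10 of 10 in Shouguang, 7 of 9 in Tibetan and 9 of 10 in Dwarf Recessive White. Several probe sets can read 1 gene: the 100 stood for 74 to 80 named genes.

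**Figure D2:**
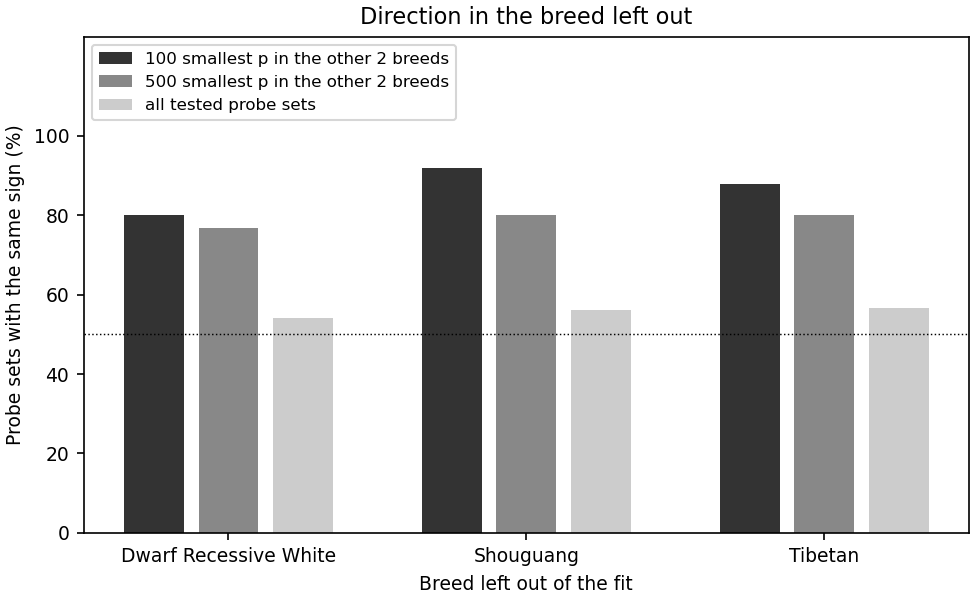
Share of probe sets (vertical axis, percent) whose hypoxia effect in the breed left out of the fit (horizontal axis) had the sign found in the other 2 breeds. Dark bars are the 100 smallest p-values, grey bars the 500 smallest and light bars all probe sets tested; the dark bars stand at 80 to 92 and the light bars at 54.1 to 56.6.

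Of the 500 probe sets with the smallest p in 2 breeds, 76.8% to 80% had the same direction in the third. Across all 23063 probe sets, the hypoxia effects of 2 breeds had a Pearson correlation of 0.126 for Shouguang with Tibetan, 0.058 for Dwarf Recessive White with Tibetan and 0.024 for Dwarf Recessive White with Shouguang. These values describe probe sets on different arrays, many of which move little beyond noise, and probe sets are not independent replicates. A single breed gave few calls. With its 4 arrays read in the joint fit, 3 probe sets passed in Dwarf Recessive White (0.013%), 0 in Shouguang (0%; 1906 at an unadjusted p under 0.05) and 0 in Tibetan (0%; 1574).

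No difference between breeds passed with all arrays in the fit. In limma's F test of the breed-by-condition terms 0 probe sets had an adjusted p under 0.05 (0%), and 1404 had an unadjusted one (6.09% of all). Among the 71 shared probe sets 9 did (12.7%), with CCN2 (unadjusted p = 0.00156) and THBS4 (0.00567) foremost among the named genes. The smallest adjusted p was 0.673. Leaving out 1 array gave 0 to 14 calls: 14 without Dwarf Recessive White normoxia replicate 2, 2 without Shouguang hypoxia replicate 2, and 1 each without Dwarf Recessive White hypoxia replicate 1 or Tibetan normoxia replicate 1. With 2 arrays per group such a test leaves room for differences in size, and the effects of a gene in the 3 breeds are given side by side.

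Some genes of the extracellular matrix rose and others fell. MGP, the matrix Gla protein that keeps soft tissue from calcifying, stood at 12.73 and 12.81 in Dwarf Recessive White normoxia and at 13.49 and 13.38 in hypoxia. It stood at 11.47 and 11.67 against 12.68 and 12.63 in Shouguang, and at 11.91 and 12.25 against 13.03 and 12.68 in Tibetan hearts. The pairs did not overlap within any breed, while Shouguang hypoxia lay below Dwarf Recessive White normoxia. MGP rose by 0.84 ± 0.09 (1.79-fold, adjusted p = 0.0036), the smallest p of the fit, and passed in all 12 fits that left out 1 array.

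CCN2, a secreted matrix-bound growth factor also called CTGF, stood at 12.05 and 12.26 in Dwarf Recessive White normoxia and at 13.62 and 13.64 in hypoxia. The Shouguang arrays read 11.74 and 12.05 against 12.96 and 12.98. The Tibetan arrays read 12.52 and 12.59 against 13.25 and 12.69, so that 1 Tibetan hypoxia array lay close to normoxia. CCN2 rose by 0.99 ± 0.15 (1.99-fold, adjusted p = 0.0168), with 1.48 in Dwarf Recessive White, 1.07 in Shouguang and 0.42 in Tibetan hearts. The call ended without Dwarf Recessive White hypoxia replicate 1 (adjusted p = 0.0661) or Shouguang normoxia replicate 1 (0.0538).

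MATN2, the filament-forming matrix protein matrilin-2, rose by 0.80 ± 0.12 (adjusted p = 0.0168), from 8.44, 9.03 and 9.69 (lowest, median and highest normoxia array) to 9.46, 9.93 and 10.19. The conditions overlapped across breeds and were apart within each. The call was lost without Dwarf Recessive White hypoxia replicate 1 (0.0661). Of its other 3 probe sets, which stood at 0.41 to 0.58, 1 passed as well. In the opposite direction, THBS4, a thrombospondin of tendon and heart matrix, fell by 0.66 on the log2 scale (SE 0.11, adjusted p = 0.03). Its effect was -1.11 in Dwarf Recessive White, -0.44 in Shouguang and -0.42 in Tibetan hearts. Its hypoxia arrays read 8.76 to 9.55 and its normoxia arrays 9.55 to 9.99. COL20A1, a collagen chain associated with fibrils, fell by 0.53 (SE 0.10, adjusted p = 0.0411), with hypoxia at 9.09 to 9.36 and normoxia at 9.52 to 9.95. THBS4 passed in 3 and COL20A1 in 1 of the 12 fits without 1 array. Of the 41 measured matrix and fibroblast genes, read by their brightest probe set, 28 lay above 0 with a median of 0.08, and 2 rose (MGP and CCN2) while 1 fell (THBS4). Over all probe sets tested 51.1% lay above 0, with a median of 0.01. The same direction in all 3 breeds was found for 56.1% of the list, beside 32.1% of all probe sets tested. The latter are not limited to the brightest of a gene.

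Among the highest changes were those of 3 receptors. AGTR1, the type 1 receptor of angiotensin II, which acts on vessel tone and on growth of heart muscle and fibroblasts, stood at 7.63 and 7.81 in Dwarf Recessive White normoxia and at 10.02 and 8.38 in hypoxia. It stood at 6.64 and 7.11 against 8.58 and 8.55 in Shouguang, and at 7.34 and 8.07 against 8.47 and 8.51 in Tibetan hearts. All 6 hypoxia arrays lay above all 6 normoxia arrays. The change was 1.32 ± 0.26 (2.49-fold), with an adjusted p only just under the threshold, and AGTR1 passed in 2 of the 12 fits without 1 array (adjusted p from 0.0272 to 0.137). LHCGR, the receptor of luteinizing hormone, rose by 0.85 ± 0.12 (adjusted p = 0.0168), with nearly equal effects of 0.84, 0.92 and 0.78 in Dwarf Recessive White, Shouguang and Tibetan hearts. Without Dwarf Recessive White hypoxia replicate 1 its adjusted p was 0.0658. PAQR5, a membrane receptor for progestins, rose by 1.47 ± 0.27 (adjusted p = 0.0407). Its Tibetan pairs overlapped, with 8.01 and 6.31 in normoxia and 7.96 and 7.91 in hypoxia, and 2 of the 6 normoxia arrays lay under the dim limit. Its other 2 probe sets stood at 0.81 and 0.82, and the first of these passed. PAQR5 passed in 2 of the 12 fits without 1 array.

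Among genes of immune defence, BLB1, a class II beta chain of the major histocompatibility complex, had normoxia signals of 10.83 and 10.67 in Dwarf Recessive White, 9.82 and 10.30 in Shouguang, and 11.02 and 10.72 in Tibetan hearts. The hypoxia signals were 12.41 and 12.38, 10.74 and 11.21, and 12.04 and 11.34 in the same order. The pairs were apart in every breed, while the lower Shouguang hypoxia array lay within the normoxia range of the other breeds. BLB1 rose by 1.13 ± 0.16 (2.18-fold, adjusted p = 0.0168) and lost its call without Dwarf Recessive White hypoxia replicate 1 (0.0623). Its other 3 probe sets stood at 0.51 to 2.29, and 1 of them passed. These probe sets may also bind transcripts of related class II genes.

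GBP, an interferon-induced GTPase, had the highest change among the probe sets that passed, at 1.68 ± 0.27 (3.20-fold, adjusted p = 0.0246). Its lowest, median and highest signals were 7.77, 8.79 and 9.85 in normoxia and 10.04, 10.39 and 11.14 in hypoxia, without overlap. IFI6, an interferon-inducible protein, rose by 1.41 ± 0.21 (adjusted p = 0.0203). The normoxia arrays read 7.77 to 9.25, the highest being Tibetan replicate 1, and the hypoxia arrays 9.05 to 10.70, with the pairs apart in each breed. GBP passed in 7 and IFI6 in 9 of the 12 fits without 1 array. IFI6 was lost without replicate 1 of Dwarf Recessive White hypoxia, of Dwarf Recessive White normoxia or of Shouguang normoxia (adjusted p from 0.0517 to 0.0572). BLB1 was the only one of 8 measured antigen presentation genes to pass: 5 lay above 0, with a median of 0.04. The class II invariant chain CD74 stood at -0.02 ± 0.10, the peptide exchange factor DMA at -0.15 ± 0.14, the class I chain BF2 at -0.15 ± 0.21 and the interferon-induced factor IRF1 at 0.39 ± 0.13. Leukocyte and macrophage genes had 11 of 19 above 0, a median of 0.08 and 0 passing. Of these, LYZ passed the filter with a normoxia mean under the dim limit, so that it could only differ upward. Over the 18 with both means above the limit, 10 lay above 0 with a median of 0.07. Summed over the 7 leukocyte markers, the signal had a log2 of 10.20 to 10.82 in hypoxia and 10.34 to 10.60 in normoxia. Of these markers CSF3R lay under the dim limit. In a bulk sample, fewer cells of a type and less RNA per cell cannot be told apart.

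Genes of thiol and oxidant metabolism moved singly. GLRX, the cytosolic glutaredoxin that reduces mixed disulfides with glutathione, read 8.58 and 8.90 in Dwarf Recessive White normoxia and 9.5 and 10.09 in hypoxia. It read 8.32 and 8.5 against 10.17 and 10.03 in Shouguang, and 8.71 and 8.35 against 9.39 and 9.03 in Tibetan hearts. The hypoxia arrays lay above all normoxia arrays, and the widest gap was that of Shouguang. GLRX rose by 1.14 ± 0.17 (2.20-fold, adjusted p = 0.0168), and its call ended without Dwarf Recessive White normoxia replicate 1 (adjusted p = 0.0517). OSGIN1, a growth inhibitor induced by oxidative stress, rose by 0.84 ± 0.14 (adjusted p = 0.0261), from 7.50 to 8.34 in normoxia to 8.61 to 8.89 in hypoxia, and its second probe set stood at 0.94. OSGIN1 passed in 5 of the 12 fits without 1 array (adjusted p up to 0.0761). Of 30 measured antioxidant and thiol reductase genes GLRX alone passed. The list as a whole leaned the other way, with 20 below 0 and a median of -0.07.

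The other genes with the highest changes have less settled roles in the heart. SDR42E2, of the short-chain dehydrogenase family, rose by 1.21 ± 0.17 and ACCSL, an aminotransferase-like protein, by 1.01 ± 0.15 (adjusted p = 0.0168 each). LRRC2, a leucine-rich repeat protein, rose by 1.01 ± 0.16 (adjusted p = 0.0203) and CNTNAP5, a neuronal adhesion protein, by 1.40 ± 0.24 (adjusted p = 0.03). Of the CNTNAP5 normoxia arrays 2 lay under the dim limit. The second probe set of CNTNAP5, with a mean log2 signal of 6.57, stood at -0.05 ± 0.27 and showed no rise. That of ACCSL stood at 0.42, so the probe sets of ACCSL disagree in size. SDR42E2 passed in all 12 fits without 1 array, ACCSL in 11, LRRC2 in 7 and CNTNAP5 in 3. ACCSL was lost without Dwarf Recessive White hypoxia replicate 1 (0.0661).

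**Figure D3:**
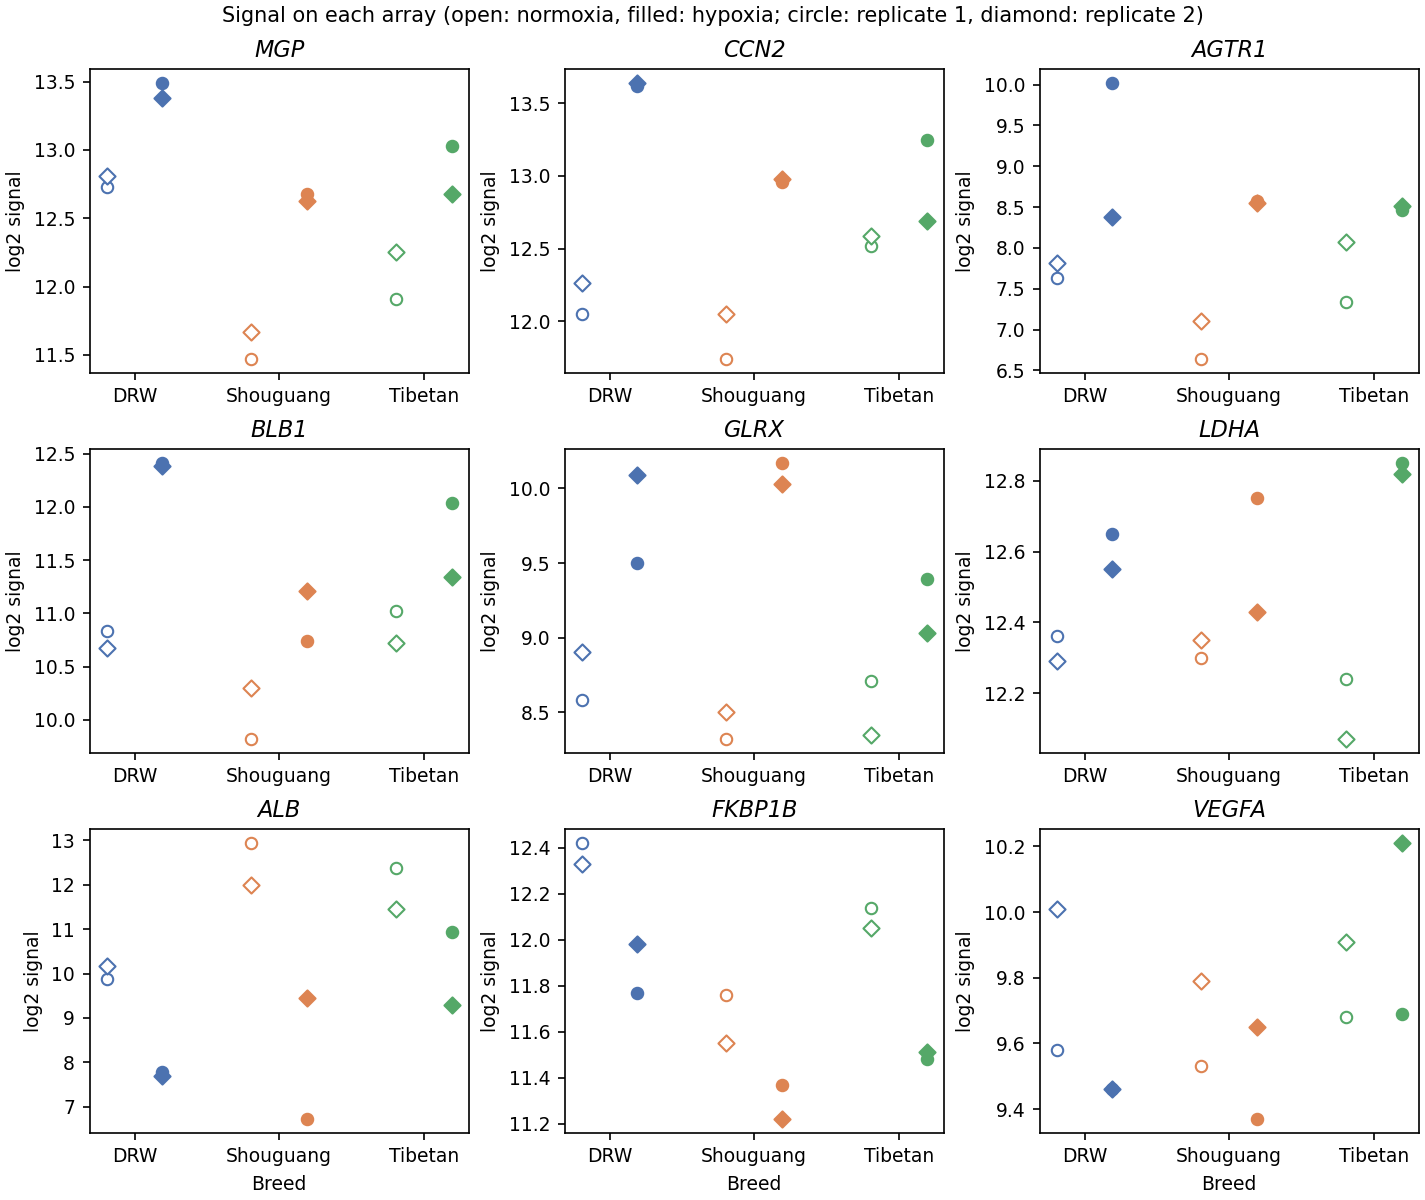
Log2 signal (vertical axis) of 9 genes on each of the 12 arrays, by breed (horizontal axis, DRW for Dwarf Recessive White). Open symbols are normoxia and filled symbols hypoxia, circles replicate 1 and diamonds replicate 2. The pairs are apart in every breed for all genes shown but VEGFA, while the level differs between breeds.

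The largest falls belonged to transcripts of plasma proteins made mainly in the liver and yolk sac. ALB, serum albumin, read 9.87 and 10.18 in Dwarf Recessive White normoxia and 7.77 and 7.69 in hypoxia. It read 12.94 and 12 against 6.72 and 9.45 in Shouguang, and 12.38 and 11.46 against 10.93 and 9.29 in Tibetan hearts. The pairs were apart within each breed, but the Shouguang hypoxia arrays lay far apart and Tibetan hypoxia replicate 1 lay above both Dwarf Recessive White normoxia arrays. ALB fell by 2.83 on the log2 scale (SE 0.49, adjusted p = 0.03). TTR, the thyroid hormone carrier transthyretin, fell by 1.62 (SE 0.28, adjusted p = 0.03), with 8.02, 9.69 and 10.46 as lowest, median and highest in normoxia and 7.06, 7.83 and 8.89 in hypoxia.

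AHSG, the liver glycoprotein fetuin A, fell by 4.05 (SE 0.69, adjusted p = 0.03), but 5 of its 6 hypoxia arrays lay under the dim limit. Once dim signals were set to that limit, AHSG fell by 1.91. TF, the iron carrier ovotransferrin, fell by 1.24 (SE 0.21, adjusted p = 0.0286) on 1 probe set. There its effect was -0.66 in Dwarf Recessive White, -1.93 in Shouguang and -1.13 in Tibetan hearts. On another TF fell by 1.36 (SE 0.24), while its brightest probe set stood at -0.11 ± 0.08. Of 23 plasma protein genes on the array 12 passed the filter on dim probe sets, and AHSG, FGA, FGG and AFP passed it with a hypoxia mean under the limit, so that they could only differ downward. Read by their brightest probe set, 3 of the 12 fell (ALB, TTR and AHSG) and 1 rose. The median was -1.0 over the 12 and -0.55 over the 8 with both means above the limit, of which 6 lay below 0. The one that rose was APOA1, the main protein of high-density lipoprotein (0.71 ± 0.13, adjusted p = 0.0463), a name added after its value was seen. The fibrinogen chains FGG (-1.64 ± 0.37), FGB (-1.37 ± 0.32) and FGA (-1.46 ± 0.48) did not pass. Over the 12, the median was -1.52 in Shouguang, -1.21 in Tibetan and -0.27 in Dwarf Recessive White hearts, and it was -0.63 without the Shouguang arrays. The difference between breeds was not tested for the list. Summed over 6 liver and yolk sac markers, the signal had a log2 of 11.60 to 12.64 in hypoxia. In normoxia it was 11.69 to 13.62. The brightest gene weighs most in such a sum. In hypoxia that was APOA1 (mean 11.52, against 8.64 for ALB), which rose while the other markers lay below 0. The part of these transcripts in the other results was not tested. ALB passed in 3, TTR and AHSG in 4 and TF in 6 of the 12 fits without 1 array.

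In the contractile and electrical machinery, FKBP1B, a calstabin that steadies the calcium release channel, had normoxia signals of 12.42 and 12.33 in Dwarf Recessive White, 11.76 and 11.55 in Shouguang, and 12.14 and 12.05 in Tibetan hearts. The hypoxia signals were 11.77 and 11.98, 11.37 and 11.22, and 11.48 and 11.51. The pairs were apart in each breed, at levels that overlapped between breeds. FKBP1B fell by 0.49 (SE 0.06, adjusted p = 0.0156) and passed in all 12 fits without 1 array. GJA1, the gap junction protein connexin 43, rose by 0.47 ± 0.09 (adjusted p = 0.0407), from 9.41 to 9.92 in normoxia to 10.05 to 10.40 in hypoxia. It lost its call in each of the 12 fits without 1 array (adjusted p from 0.0545 to 0.114). GJD2, connexin 36 of electrical synapses, fell by 0.84 (SE 0.15, adjusted p = 0.0407), and its second probe set stood at -1.16; it passed in 1 of the 12 fits.

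FKBP1B and GJA1 were the only ones of 37 measured cardiomyocyte genes to pass. GJA5, a brighter connexin of this list, lay below 0 and did not pass (-0.17 ± 0.05, adjusted p = 0.176). Its mean was 12.62 in hypoxia and 12.79 in normoxia. Of the 37, read by their brightest probe set, 28 lay below 0 with a median of -0.07. In all 3 breeds 56.8% had the same direction, beside 32.1% of all probe sets tested. The 9 cardiomyocyte markers differed by -0.12 (MYH7B) to 0.01 (NPPA). TNNC2, the troponin C of fast skeletal muscle, fell by 1.48 (SE 0.24, adjusted p = 0.0271). Of its 6 hypoxia arrays 3 lay under the dim limit. With signals raised to the limit TNNC2 fell by 1.11, and it passed in 4 of the 12 fits without 1 array. Of the skeletal muscle markers, MYOD1, MYOG and MYLPF lay under the dim limit and TNNT3 stood at 0.42.

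Other genes fell in all breeds by smaller amounts. ATG12, which is joined to ATG5 to build the autophagosome, fell by 0.63 (SE 0.10, adjusted p = 0.0234), with hypoxia at 8.27 to 8.99 and normoxia at 9.08 to 9.51; its second probe set stood at -0.05. IDI2, an isopentenyl diphosphate isomerase of the isoprenoid pathway, fell by 0.55 (SE 0.10) and its other probe sets stood at -0.55 and -0.37. TRIM36, a ubiquitin ligase, fell by 0.50 (SE 0.09, adjusted p = 0.0444). Its Tibetan pairs overlapped, and its other probe sets stood at -0.35 and 0.05. FAM83D, a protein of the mitotic spindle, fell by 0.46 (SE 0.09, adjusted p = 0.0407), and SRPK2, a kinase of splicing factors, fell by 0.41 (SE 0.07, adjusted p = 0.0307). The other probe sets of SRPK2 stood at -0.29 and -0.03, and that of FAM83D at -0.37. COQ7, a hydroxylase of ubiquinone synthesis, fell by 0.40 (SE 0.07, adjusted p = 0.0271), with its other probe sets at -0.41 and -0.15. ALAS1, the housekeeping enzyme that starts haem synthesis, fell by 0.37 (SE 0.07, adjusted p = 0.0375), with 11.28 to 11.94 in hypoxia and 11.78 to 12.40 in normoxia. These genes passed in 1 (FAM83D) to 6 (ATG12) of the 12 fits without 1 array.

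Among the passing genes outside the naming rule, several belong to fuel use; they were picked after their values were seen. MPC2, a subunit of the mitochondrial pyruvate carrier, fell by 0.32 (SE 0.05, adjusted p = 0.0203), with 13.41 to 13.68 in hypoxia and 13.72 to 13.99 in normoxia. OXCT1, which starts the use of ketone bodies, fell by 0.33 (SE 0.06, adjusted p = 0.03), with 13.78 to 14.20 in hypoxia and 14.27 to 14.42 in normoxia. For both genes all hypoxia arrays lay below all normoxia arrays. ISCU, a scaffold for iron-sulfur clusters, fell by 0.30 (SE 0.05) and PRKAG2, a regulatory subunit of AMP-activated kinase, by 0.38 (SE 0.07). ACACB, whose product malonyl-CoA restrains fatty acid entry into mitochondria, rose by 0.71 ± 0.13 (adjusted p = 0.0444). CA4 and FZD4, picked in the same way, lie outside fuel use. CA4, a membrane-bound carbonic anhydrase, rose by 0.56 ± 0.08 (adjusted p = 0.0168). FZD4, a receptor of Wnt and norrin, rose by 0.46 ± 0.08 (adjusted p = 0.0262), and its other probe set stood at 0.14. Fits without 1 array are not given for the genes picked in this way.

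LDHA, which makes lactate from pyruvate, was the one gene of the glycolysis and HIF target lists that passed. It stood at 12.36 and 12.29 in Dwarf Recessive White normoxia and at 12.65 and 12.55 in hypoxia, at 12.30 and 12.35 against 12.75 and 12.43 in Shouguang, and at 12.24 and 12.07 against 12.85 and 12.82 in Tibetan hearts. All 6 hypoxia arrays lay above all normoxia arrays, by the least in Shouguang. LDHA rose by 0.41 ± 0.07 (1.33-fold, adjusted p = 0.0362), with 0.27, 0.27 and 0.68 in Dwarf Recessive White, Shouguang and Tibetan hearts (unadjusted p of the difference = 0.0144). It passed in 3 of the 12 fits without 1 array.

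The other genes always read did not pass. VEGFA, the vessel growth factor, had 9.37, 9.56 and 10.21 as lowest, median and highest signal in hypoxia and 9.53, 9.73 and 10.01 in normoxia, which overlap (-0.11 ± 0.10, adjusted p = 0.723). The mitophagy receptor BNIP3 stood at 0.21 ± 0.07 (0.251), with 0.27 in Dwarf Recessive White, -0.02 in Shouguang and 0.38 in Tibetan hearts. The glucose transporter SLC2A1 stood at 0.11 ± 0.06, the pyruvate dehydrogenase kinase PDK1 at -0.09 ± 0.06, the prolyl hydroxylase EGLN3 at 0.15 ± 0.19 and the peptide ADM at 0.04 ± 0.08. The alpha subunits HIF1A and EPAS1 stood at -0.11 ± 0.08 and -0.07 ± 0.06, and the natriuretic peptide NPPA at 0.01 ± 0.04. Of 18 measured glycolysis genes 11 lay above 0 with a median of 0.03, and LDHA alone passed. The lactate transporter SLC16A3 had a larger change that did not pass, at 0.71 ± 0.16 (adjusted p = 0.0775). By breed it was 0.72 in Dwarf Recessive White, 0.33 in Shouguang and 1.08 in Tibetan hearts. The enolase ENO2 stood at -0.57 ± 0.16 (0.157). Of 30 measured HIF targets outside glycolysis 20 lay above 0 with a median of 0.04 and 0 passed. FAM162A had the smallest adjusted p among them and lay below 0 (-0.27 ± 0.06, 0.0724). The same direction in all 3 breeds was found for 5 of these 30 upward and 2 downward (23.3%), beside 32.1% of all probe sets. The list was read by 1 probe set per gene, and the difference between these shares was not tested. By breed the median was 0.14 in Tibetan, -0.01 in Shouguang and -0.03 in Dwarf Recessive White hearts. Of the 11 HIF subunits and regulators 8 lay below 0, with a median of -0.07 and 0 passing.

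**Figure D4:**
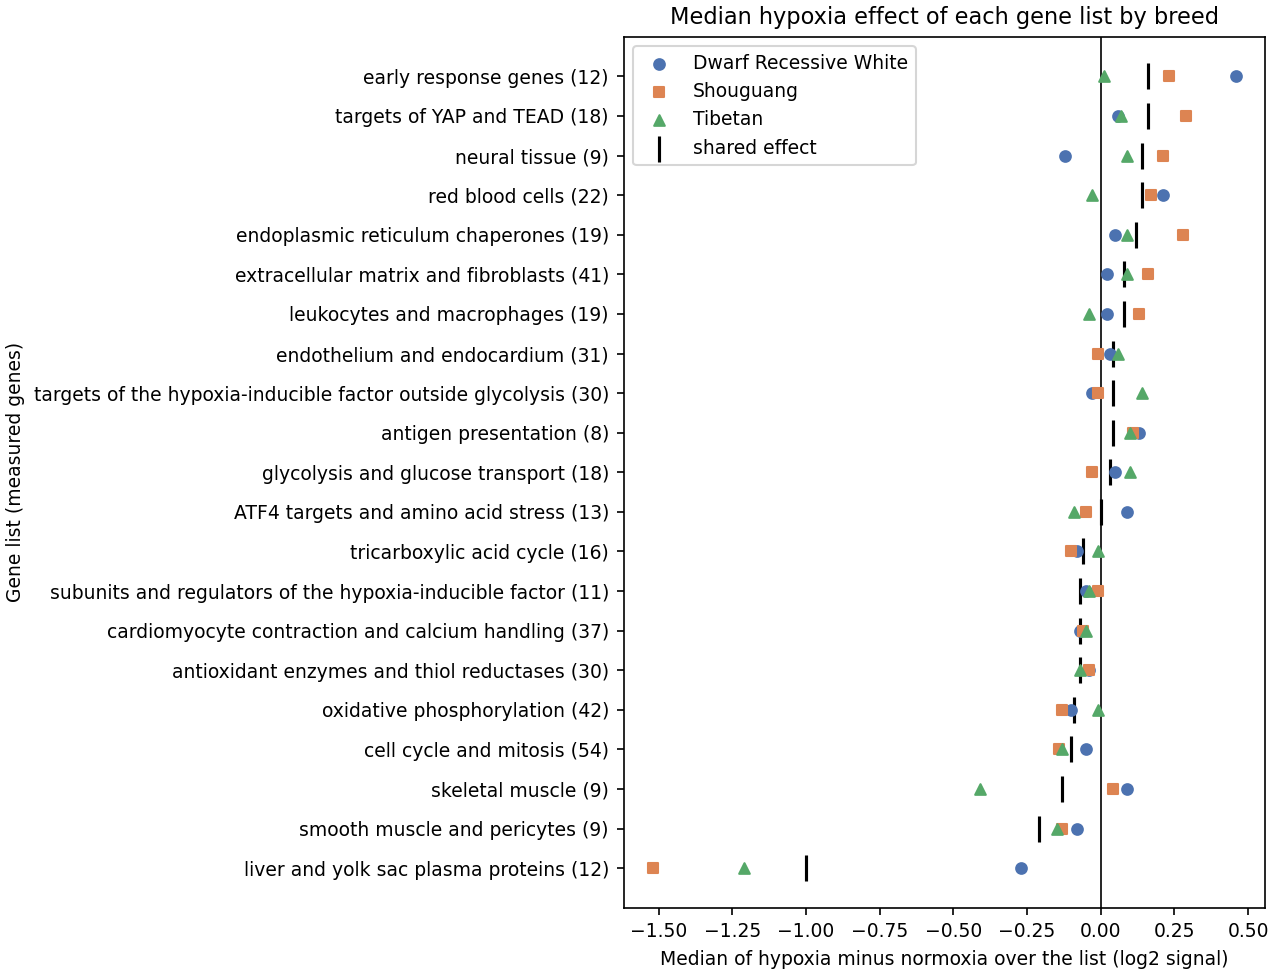
Median of hypoxia minus normoxia in log2 signal (horizontal axis) over the measured genes of each list (vertical axis, number measured in brackets). Symbols are the 3 breeds and black marks the shared effect. The plasma protein list has the shared median furthest from 0, at -1, with -1.52 to -0.27 by breed. Of its 12 genes, 4 had a hypoxia mean under the dim limit. In Dwarf Recessive White, early response genes lay further from 0, at 0.46. The 3 breeds lie on the same side of 0 for many lists, among them cardiomyocyte, cell cycle and oxidative phosphorylation genes, the last at -0.01 in Tibetan hearts.

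In the remaining lists few genes passed, and several leaned one way by small amounts. Of 12 early response genes, which respond within minutes to growth factors and stress, 11 lay above 0 with a median of 0.16. EGR1, a zinc finger factor of this class, rose by 0.73 ± 0.13 (adjusted p = 0.03), with 0.84, 0.71 and 0.65 in Dwarf Recessive White, Shouguang and Tibetan hearts, and its second probe set passed at 0.60. EGR1 passed in 4 of the 12 fits without 1 array. JUN (0.45 ± 0.10), MYC (0.47 ± 0.11) and ATF3 (1.01 ± 0.32) did not pass, and the effect of ATF3 was 1.93 in Dwarf Recessive White and -0.06 in Tibetan hearts. The list's median was 0.46 in Dwarf Recessive White, 0.23 in Shouguang and 0.01 in Tibetan hearts, a difference that was not tested.

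Targets of YAP and TEAD, regulators that respond to stretch and stiffness, had 14 of 18 above 0 and a median of 0.16. CCN2 alone passed, and ANKRD1, a stretch-responsive gene, stood at 0.80 ± 0.30 with 1.92 in Dwarf Recessive White and -0.05 in Tibetan hearts. Endoplasmic reticulum chaperones had 16 of 19 above 0 and a median of 0.12, with 0 passing. Targets of the stress factor ATF4 had 8 of 13 above 0 and a median of 0.00, with 0 passing. Red blood cell genes had 18 of 22 above 0 and a median of 0.14, with the housekeeping enzyme ALAS1 passing downward. By breed their median was 0.21 in Dwarf Recessive White and 0.17 in Shouguang, but -0.03 in Tibetan hearts. Endothelial genes had 18 of 31 above 0 and a median of 0.04, and neural genes 5 of 9 and 0.14, with GJD2 passing downward; the neural median was 0.02 without the Tibetan arrays.

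On the falling side, oxidative phosphorylation genes had 40 of 42 below 0 and a median of -0.09, and 52.4% shared their direction in all 3 breeds. Over all probe sets tested, which are not limited to the brightest of a gene, 32.1% did so and 51.1% lay above 0. Among other lists the shared direction held for 50% of glycolysis, 54.5% of red blood cell and 23.3% of HIF target genes. The difference between these shares was not tested. By breed the median of oxidative phosphorylation genes was -0.1 in Dwarf Recessive White and -0.13 in Shouguang, but -0.01 in Tibetan hearts. Tricarboxylic acid cycle genes had 13 of 16 below 0 and a median of -0.06, with -0.08, -0.1 and -0.01 in the same order of breeds. Cell cycle genes had 46 of 54 below 0 and a median of -0.10, with 46.3% in the same direction in all 3 breeds. Smooth muscle and pericyte genes had 8 of 9 below 0 and a median of -0.21; MYL9, a myosin light chain, stood at -0.22 ± 0.05. No gene of these 4 lists passed. Skeletal muscle genes had 5 of 9 below 0 and a median of -0.13, with TNNC2 passing. The median was 0.03 without the Tibetan arrays, and 0.05 without TNNC2, whose hypoxia mean lay under the dim limit.

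Sex chromosomes differed between the arrays. The mean log2 signal of 14 genes of the W chromosome, which female birds alone carry, was 8.09 to 9.60 in hypoxia and 6.01 to 9.47 in normoxia. Its lowest value was that of Dwarf Recessive White normoxia replicate 1. Of the 61 passing probe sets placed on a chromosome 6 lay on Z (9.84%), against 4.31% of those tested, 2 higher and 4 lower in hypoxia, and 0 on W. The 6 read GLRX, LRRC2, ATG12, OXCT1, THBS4 and TRIM36. With the W-linked mean of an array as a covariate 40 probe sets passed, 39 of them among the 71. GLRX (adjusted p = 0.02), LRRC2 (0.027), ATG12 and THBS4 (0.0306 each) were among the 39, and OXCT1 and TRIM36 were not. MGP (0.0049), FKBP1B (0.0148) and CCN2 (0.0215) also passed with the covariate, and AGTR1 (0.0755), GJD2 (0.0619) and LDHA (0.0588) did not. The effects of AGTR1, GJD2 and LDHA were 1.28, -0.84 and 0.41 with the covariate, against 1.32, -0.84 and 0.41 without it.

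The replicate number itself went with many transcripts: 1306 probe sets (5.66%) passed for replicate 2 against replicate 1, with a median size of 0.40. Of the 71 shared hypoxia probe sets 6 did so (8.45%). The sources used here do not say what the number stands for.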

How the data were processed

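Transcripts of embryonic hearts were measured on 12 Affymetrix arrays. The authors deposited a linear signal intensity for each probe set, from GCOS per the submitters' processing notes. The trimmed mean of the values came to 500.1 on every array. From 38535 probe sets, 96 control probe sets and those whose log2 signal averaged less than the 40th percentile were left out. Signals were put on the log2 scale with no further normalization. Of the probe sets, 27178 had 1 gene symbol in the platform annotation (177 several, 11180 none); 26863 gene IDs matched the GRCg7b gene table, which updated symbols and gave chromosomes.

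limma 3.58.1 in R 4.3.3 fitted condition, breed and replicate number as additive terms, and variances were moderated along a trend on intensity (6.71 prior and 7 residual degrees of freedom). Tests were two-sided. The number of arrays limits the precision: the median SE was 0.14. Differences between breeds were tested with breed-by-condition terms added. The breed left out was read after the same fit on the other 2.

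The 21 gene lists were read by the brightest probe set of a gene and have no test. The comparison, the lists and the rules were chosen with earlier results of these data known. Named genes were the 15 highest and 15 lowest changes that passed with 1 symbol and the same direction in all breeds, up to 4 passing members of a list, and 10 fixed genes; the probe set with the smallest p stands for a gene that passed. Alternatives covered the replicate term, filters, scaling, offset, moderation, weights, thresholds, a W-linked covariate, and leaving out arrays or breeds. Raising dim signals to the limit was an alternative chosen after seeing the data. Every step across all probe sets was tested on simulated data.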

Additional observations from a re-analysis of the deposited data

Results flagged for a closer look

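Single arrays stood apart from the other 5 of their condition for 4 named genes, by a gap to the nearest array that passed Dixon's criterion as a share of the condition's range. Chance gives such a gap in about 1 in 20 groups, and 4 of 86 groups showed it. AGTR1 read 10.02 on Dwarf Recessive White hypoxia replicate 1, with the next array at 8.58 and the lowest at 8.38 (ratio 0.877). IFI6 read 9.25 on Tibetan normoxia replicate 1, with the next at 8.12 and the lowest at 7.77 (0.763). PDK1 read 13.10 on Dwarf Recessive White normoxia replicate 1, with the next at 13.22 and the highest at 13.27 (0.714). TRIM36 read 8.32 on Tibetan hypoxia replicate 1, with the next at 8.88 and the highest at 9.19 (0.641).

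The hypoxia effect of PDK1, the kinase that shuts pyruvate dehydrogenase, had opposite signs between breeds. Both Tibetan hypoxia arrays lay above both normoxia arrays, by 0.0859 on average. The effect was -0.213 in Dwarf Recessive White and -0.15 in Shouguang hearts, and the difference did not pass in limma's F test (unadjusted p = 0.0607).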

How the results depend on the processing

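The 71 probe sets became 23 with no replicate block, 35 with no filter on dim probe sets, 41 with median centring, 40 with the W-linked covariate and 0 without the intensity trend. They became 137 with a filter at the 60th percentile and 132 with 1 probe set per symbol. They were 250 at an adjusted p of 0.1, and 19 with a change of at least 2-fold required. Leaving out 1 array gave 7 to 72, and leaving out a breed gave 10 without Dwarf Recessive White, 10 without Shouguang and 9 without Tibetan arrays. The count was within 1.5 times under the other settings tried: 92 with the replicate block as 6 pairs of breed and number, 81 with a mean for each group, 78 with quantile normalization or an offset of 32, 71 with array weights and 103 with dim signals raised to the limit. The replicate numbers are not shown to pair the arrays: deviations of same-numbered arrays from their group means correlated by 0.0909, 0.199 and 0.194 within the breeds, and by 0.0586 to 0.148 between them. In Shouguang hearts, the share with the direction of the other breeds was 80% over the 500 smallest p-values and 83% with no replicate block. The difference between breeds gave 0 calls with all arrays and 0 to 14 without 1 array. None of the 34 named genes that passed changed direction under the settings run. These settings reuse the same arrays, so an unchanged direction is favoured in advance. The cause of the lost calls was not tested. List medians kept their sign under quantile normalization, median centring and the W-linked covariate, except that of ATF4 targets, which was near 0. Without the Tibetan arrays the medians of glycolysis, HIF target and antigen presentation genes came to 0.00 and that of early response genes to 0.30. Without the Shouguang arrays the median of matrix genes was 0.02 and that of neural genes 0.05, and the neural median was 0.08 with the W-linked covariate. With 2 arrays per group and no flag for background, changes of dim probe sets are the least certain.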

Other observations

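Several genes fell just short of the threshold with the same direction in all 3 breeds; they are given as values only and were picked after their values were seen. KDR, the main receptor of vascular endothelial growth factor, stood at 0.63 ± 0.13 (adjusted p = 0.0573), with 0.87 in Dwarf Recessive White, 0.66 in Shouguang and 0.37 in Tibetan hearts. Its other 4 probe sets stood at 0.48, 0.52, 0.53 and 0.62, and none of them passed. SOX7, a transcription factor of endothelial cells, stood at 0.35 ± 0.07 (0.066). The chromatin assembly subunit CHAF1B stood at -0.32 ± 0.06 (0.0573), the helicase MCM8 at -0.40 ± 0.08 (0.0601) and the repair protein BRCA1 at -0.35 ± 0.07 (0.066). The cell cycle inhibitor CDKN1B stood at 0.27 ± 0.05 (0.0596). NES, an intermediate filament of immature muscle and neural cells, stood at -0.51 ± 0.10 (0.0509), with -0.11 in Dwarf Recessive White and -0.84 in Tibetan hearts. STK32C, a kinase, was the nearest to the threshold (0.64 ± 0.12, 0.0509).

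Many transcripts went with the replicate number. Of the 1306 that passed, 638 were higher in replicate 2 and 668 in replicate 1. Among the genes with the smallest p-values, CDO1, a cysteine dioxygenase, was higher in replicate 2 by 0.79 ± 0.08 and the splicing factor U2AF1 by 0.68 ± 0.06. ATP2B4, a calcium pump of the cell membrane, stood at -0.71 ± 0.05 for replicate 2 minus replicate 1, the metalloproteinase inhibitor TIMP3 at -0.65 ± 0.06 and the collagen chain COL5A1 at -0.46 ± 0.05. Of the 41 measured matrix genes, TIMP3 and COL5A1 among them, 10 passed for the replicate number, each gene read by its brightest probe set. The share was 5.66% over all probe sets tested, which are not limited to the brightest of a gene. The difference was not tested.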
